A study of Mus musculus with 3 samples.

Results

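Cacna1g, Cacna1h and Cacna1i encode the pore subunits of the T-type calcium channels, and they were the 3 genes of 32285 in the deposited matrices that carried those symbols. They were followed across neurons and other cells of the medial prefrontal cortex (mPFC) of mice. The series asked which molecular features of mPFC neurons respond to the estrous cycle and to sex. It holds 3 droplet libraries, for estrus females, diestrus females and males. Each library pooled the cells of 2 mice, with 15000 cells loaded per library, so the mice of a group cannot be told apart. The labels give no strain, age, allele or treatment. Estrus is the sexually receptive phase of the female cycle, and diestrus is a phase without receptivity. With 1 library a group, no ratio between groups has a replicate check, and the intervals beside such ratios cover counting error only.

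T-type channels open near the resting potential of a neuron and inactivate quickly once it is depolarised. They recover from inactivation only after the membrane has been hyperpolarised, so that a neuron released from inhibition can fire a low-threshold calcium spike crowned by a burst of action potentials. In the thalamus this rebound burst carries sleep rhythms, and in the cortex T-type currents have been described in burst-firing pyramidal cells and in interneurons. Cacna1g encodes Cav3.1, the main T-type channel of thalamic relay cells. Cacna1h encodes Cav3.2, which is blocked by low nickel and zinc and is also found in sensory neurons and in vascular smooth muscle. Cacna1i encodes Cav3.3, which has the slowest kinetics and is almost restricted to neurons.

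All 3 channels share a calcium selectivity filter built from 1 acidic residue in the pore loop of each of the 4 repeats, glutamate in repeats I and II and aspartate in repeats III and IV. The high-voltage-activated calcium channels carry glutamate in each repeat. The coding stretches of the pore loops of repeats I and III are shown because that mixed filter is what sets the family apart. They also show how alike the members are there. Sequences were read from the GENCODE M21 transcripts of mm10, 5′ to 3′ on the coding strand, with the filter codon in capitals.
Cacna1g repeat I: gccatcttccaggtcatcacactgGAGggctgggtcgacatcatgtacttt
Cacna1h repeat I: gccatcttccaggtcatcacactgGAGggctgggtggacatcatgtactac
Cacna1i repeat I: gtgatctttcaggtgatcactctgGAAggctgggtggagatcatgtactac
Cacna1g repeat III: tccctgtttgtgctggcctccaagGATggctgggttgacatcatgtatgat
Cacna1h repeat III: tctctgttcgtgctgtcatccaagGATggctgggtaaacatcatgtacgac
Cacna1i repeat III: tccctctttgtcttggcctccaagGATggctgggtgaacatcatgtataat

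The repeat III stretch lay within exon 24 of each gene, at chr11:94426447-94426497 for Cacna1g (minus strand), chr17:25383484-25383534 for Cacna1h (minus strand) and chr15:80376783-80376833 for Cacna1i (plus strand), all in mm10. The repeat I stretch was split by an intron in each gene, between exons 6 and 7 of Cacna1g and between exons 7 and 8 of Cacna1h and Cacna1i. In both repeats the filter codon stood within a stretch of 51 bases, of which 41 were identical in all 3 genes in repeat I and 39 in repeat III. Over the whole aligned coding sequence, identity was 66.6% between Cacna1g and Cacna1h, 66.1% between Cacna1g and Cacna1i and 69.6% between Cacna1h and Cacna1i. The longest run of bases shared between annotated transcripts was 41 for Cacna1g and Cacna1h, 68 for Cacna1g and Cacna1i and 50 for Cacna1h and Cacna1i. Introns were not compared, and whether reads of the members could be confused was not tested. The genes spanned 65808 bases on chromosome 11 (94408391 to 94474198), 59499 bases on chromosome 17 (25374285 to 25433783) and 111042 bases on chromosome 15 (80287238 to 80398279). No other annotated gene overlapped Cacna1g or Cacna1i. Cacna1h overlaps Tpsg1, a mast cell tryptase gene on the opposite strand, and Tpsg1 had 0 UMIs (unique molecular identifiers, counted once per captured RNA molecule) in the cells of every library.

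The estrus, diestrus and male matrices held 14476, 18052 and 19555 barcodes with 152291602, 144738154 and 115632520 UMIs, of which 12216, 13974 and 15340 cells were retained. Pairs of libraries shared 68 to 97 barcodes, or 0.348% to 0.56% of a library. A further 226, 331 and 834 cells in neuron clusters were left out because genes of another cell type led their sub-cluster. Although the labels name the cells as neurons, 1342, 1712 and 1727 retained cells were named glutamatergic and 153, 266 and 290 GABAergic. Most other named cells were microglia, endothelial cells, oligodendrocytes and astrocytes. Clusters that could not be named held 637, 3387 and 3620 cells with median depths of 1447, 929 and 903.5 UMIs, and the largest of them had the glutamatergic markers as its second-best score, so the number of neurons is not settled. In every library, all 5 glutamatergic markers and all 5 GABAergic markers were higher in their class than in the rest. Glutamatergic neurons of the estrus library held the most UMIs per cell, with medians of 36242, 24715 and 10096 in the estrus, diestrus and male libraries. Depth here means UMIs per cell, and the part of sequencing in it was not tested. Levels below are UMIs of a gene summed over the cells of a type and scaled to 1000000 nuclear-genome UMIs of those cells (CPM).

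Among cell classes, Cacna1i marked glutamatergic neurons, Cacna1g did not differ between glutamatergic and GABAergic neurons beyond the spread of the libraries, and Cacna1h was highest in vascular smooth muscle cells. Cacna1i had 27.8, 25.4 and 26.5 CPM in the glutamatergic neurons of the estrus, diestrus and male libraries. In GABAergic neurons it had 6.94, 8.29 and 13.4 CPM, below every glutamatergic value. Glutamatergic over GABAergic neurons, the log2 fold change of Cacna1i was 1.58 ± 0.17 (SE, n = 3 libraries, edgeR quasi-likelihood adjusted p = 8.52e-06).

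Cacna1h had 11.7, 10.9 and 8.62 CPM in glutamatergic neurons of the estrus, diestrus and male libraries and 7.72, 7.20 and 6.10 CPM in GABAergic neurons. The groups did not overlap, and the log2 fold change was 0.66 ± 0.16 (edgeR adjusted p = 0.00546). This call was lost without the diestrus library (0.59, adjusted p = 0.0544) and without library as a block (0.62, adjusted p = 0.0503). Cacna1g had 34.1, 25.1 and 23.4 CPM in glutamatergic neurons and 24.4, 29.2 and 23.5 CPM in GABAergic neurons. These values overlapped, and the fold change of 0.17 ± 0.13 did not pass (edgeR adjusted p = 0.283); without the estrus library it turned to -0.057. Thus 2 of the 3 genes passed in this contrast, in which 49.1% of 16693 genes tested did.

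**Figure D1:**
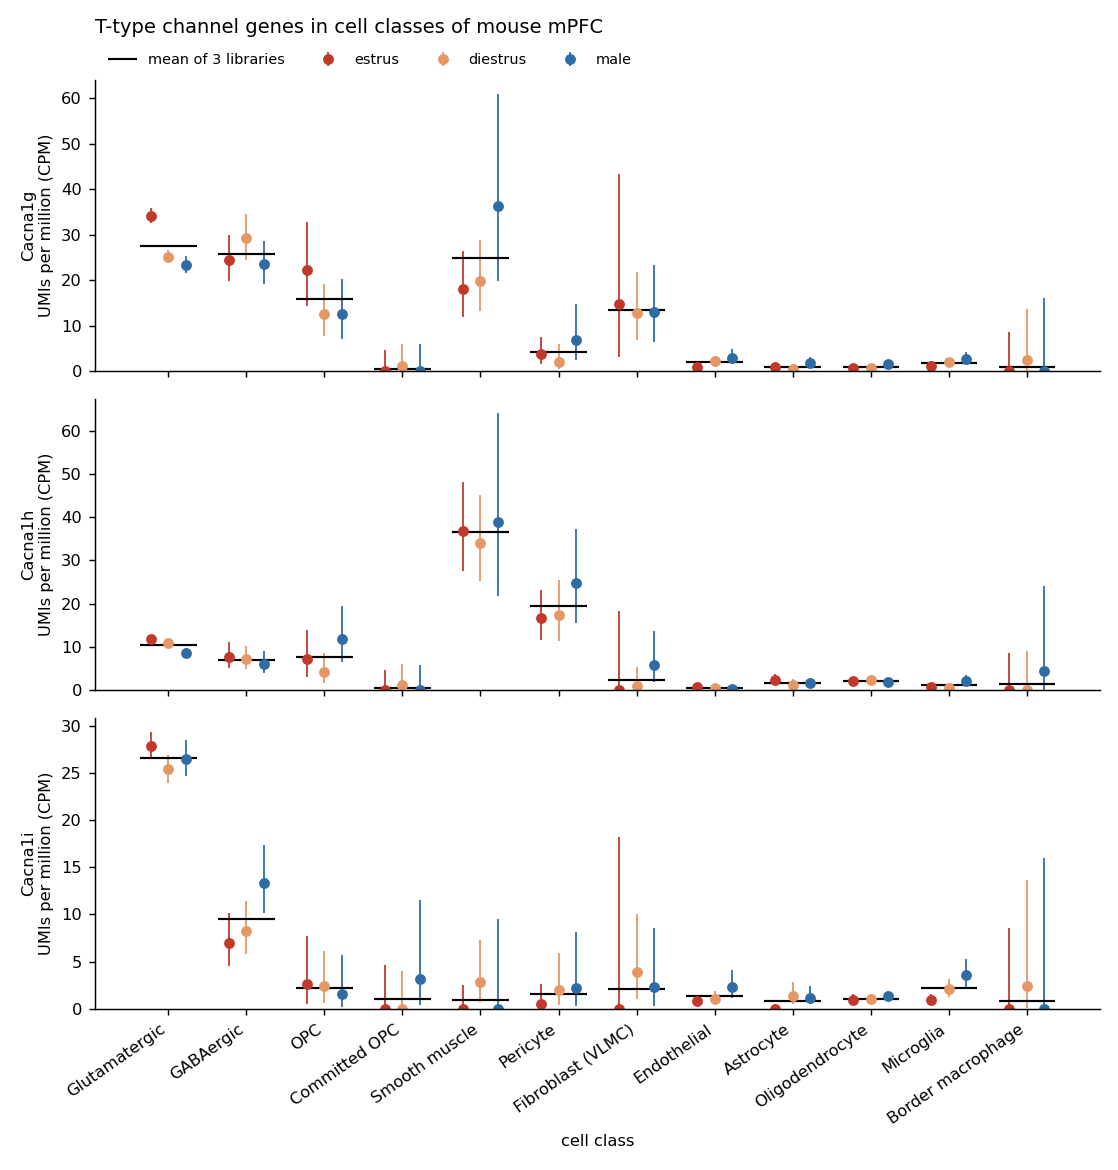
Levels of Cacna1g, Cacna1h and Cacna1i (CPM) in 12 cell classes with at least 20 cells in every library. Points are the estrus, diestrus and male libraries with exact Poisson 95% intervals (counting error only), and black lines are means of the 3 libraries; Cacna1i stands out in glutamatergic neurons (27.8, 25.4 and 26.5 CPM) and Cacna1h in smooth muscle cells (36.8, 34.1 and 38.9 CPM).

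Outside neurons, the vessel wall and the oligodendrocyte precursors held T-type transcripts. In smooth muscle cells, Cacna1h had 36.8, 34.1 and 38.9 CPM in the estrus, diestrus and male libraries, and in pericytes, which wrap capillaries, 16.6, 17.4 and 24.7 CPM. Smooth muscle cells were the highest class for Cacna1h in each library, pericytes were second, and the ranges of the 2 classes and of glutamatergic neurons did not overlap. Smooth muscle cells also held Cacna1g, at 18.1, 19.9 and 36.3 CPM, a range that overlapped those of both neuron classes and of oligodendrocyte precursors. In these precursors (OPC), which receive synapses from neurons, Cacna1g had 22.1, 12.6 and 12.5 CPM and Cacna1h 7.08, 4.19 and 11.7 CPM. Fibroblasts of the leptomeninges and vessels held Cacna1g at between 12.7 and 14.8 CPM in the 3 libraries, with 3 UMIs in the 31 fibroblasts of the estrus library. Astrocytes, oligodendrocytes, microglia, endothelial cells, border macrophages and committed OPC lay below 3 CPM for Cacna1g in every library. Cacna1i did not pass 4 CPM in any library in any of the 10 classes other than neurons.

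Free RNA in droplets can give a few UMIs of neuronal genes in any cell type, and its amount was not estimated. Shares of cells were set beside those of microglia and oligodendrocytes at a common depth of 1500 UMIs per cell, with shallower cells left out. At least 1 Cacna1g UMI was found in 4.85%, 3.87% and 4.44% of glutamatergic neurons in the estrus, diestrus and male libraries. In microglia, which should lack the gene, the shares were 0.0949%, 0.316% and 0.382%, and in oligodendrocytes 0.0611%, 0.119% and 0.231%. Cacna1i was found in 3.88%, 4.16% and 4.62% of glutamatergic neurons and in 0.0949%, 0.271% and 0.273% of microglia. Cacna1h was found in 4.95%, 4.35% and 3.90% of smooth muscle cells, in 2.46%, 1.76% and 1.58% of glutamatergic neurons and in 0.0316%, 0.0451% and 0.109% of microglia. The neuronal and vascular shares thus lay above the microglial share in every library. Without thinning, median depths were 36242, 24715 and 10096 UMIs in glutamatergic neurons and 5238, 4455 and 3430.5 UMIs in microglia. Unthinned, Cacna1g was seen in 57.2%, 37.8% and 26.5% of glutamatergic neurons, a steeper fall across libraries than at any fixed depth. At 5000 UMIs the shares were 15.0%, 13.2% and 11.7%, so part of the order of libraries stayed at that depth.

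Within the neurons, 10 subclasses had at least 20 cells in every library, 6 glutamatergic and 4 GABAergic. The glutamatergic ones are named for layer and projection: intratelencephalic (IT) neurons of layers 2/3, 4/5 and 6 project within the forebrain, extratelencephalic (ET) neurons of layer 5 project to the brainstem and other subcortical targets, near-projecting (NP) neurons of layers 5/6 have short axons, and corticothalamic (CT) neurons of layer 6 project to the thalamus. The GABAergic ones are named for Lamp5, Pvalb, Sst and Vip, the genes that mark them. Not every fixed marker was higher in its subclass than in the other neurons. Car3 was not in L6 IT neurons of any library, nor Whrn in L4/5 IT neurons of diestrus and male. In estrus, Chrna6 was not in L5 ET nor Tac1 in Sst neurons. Those of the other subclasses compared all were. Some sub-clusters had 0 of their own markers among their 10 leading genes. 1 of these, of L4/5 IT neurons, scored 0.922 for L4/5 IT and 0.791 for L2/3 IT. Each subclass was compared with the mean of the other subclasses of its class, and the T-type genes were kept out of the clustering.

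Each of these contrasts called at least 1 T-type gene, against a high background of genes that differ between neuron types. Every call in Lamp5 and Sst neurons was lost on leaving out 1 library, as given below. In L5 ET and L6 CT neurons all 3 genes passed, where 31.4% and 33.6% of 14271 genes did. In the L2/3 IT, L4/5 IT, L6 IT and L5/6 NP contrasts 2 of 3 passed, where 39.6%, 33.5%, 27.9% and 43.9% of genes did. Among GABAergic subclasses, 2 of 3 passed in Lamp5, Pvalb and Vip neurons, where 22%, 27.6% and 24.7% of 10891 genes did, and 1 of 3 passed in Sst neurons, where 18.8% did. With backgrounds this large, a call alone says little, and the sizes of the changes are given for each gene.

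**Figure D2:**
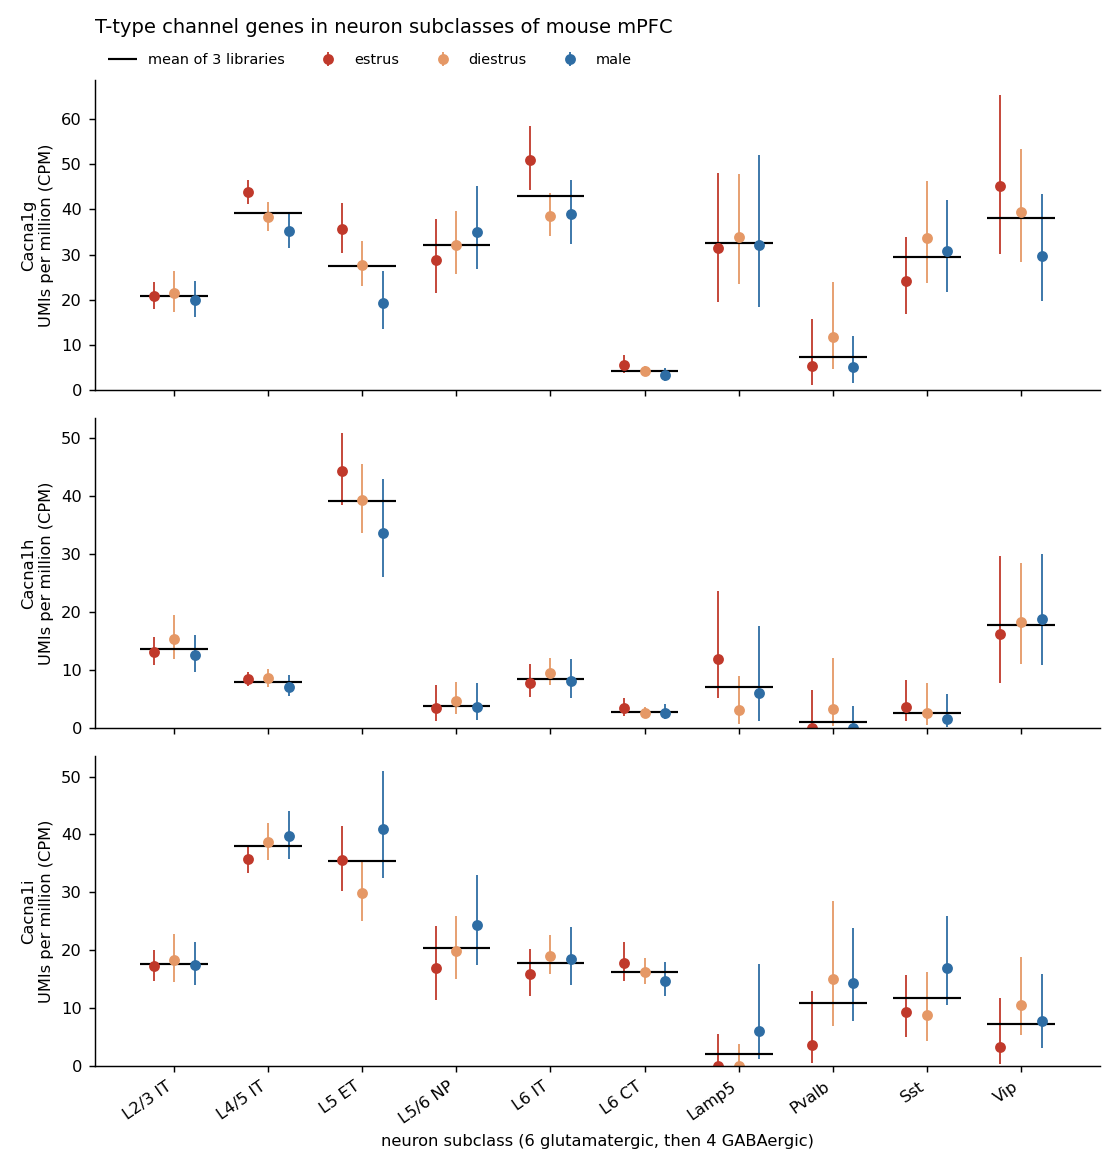
Levels of the 3 T-type genes (CPM) in 10 neuron subclasses, glutamatergic then GABAergic. Points are the estrus, diestrus and male libraries with exact Poisson 95% intervals, and black lines are means of the 3 libraries; Cacna1g is lowest on average in L6 CT neurons (5.51, 4.14 and 3.30 CPM) and Cacna1h highest in L5 ET neurons (44.4, 39.3 and 33.7 CPM).

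Among the 10 subclasses compared, Cacna1g was low in 2, the L6 CT and the Pvalb neurons. It was highest on average in L6 IT neurons, at 51.0, 38.6 and 39.0 CPM in the estrus, diestrus and male libraries. L4/5 IT neurons followed with 43.8, 38.3 and 35.3 CPM and Vip neurons with 45.2, 39.4 and 29.8 CPM. From L6 IT down to L2/3 IT neurons, through L4/5 IT, Vip, Lamp5, L5/6 NP, Sst and L5 ET, the range of each subclass overlapped that of the next, so that neighbours in this order cannot be told apart from the spread between libraries. Subclasses farther apart in the order could be: L6 IT neurons lay wholly above Lamp5, L5/6 NP, Sst, L5 ET and L2/3 IT neurons. L2/3 IT neurons were the lowest of these 8 on average, with 20.9, 21.5 and 19.9 CPM, although L5 ET neurons were lower in the male library, at 19.2 CPM.

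A gap then separated them from Pvalb neurons, the fast-spiking interneurons, with 5.37, 11.6 and 5.09 CPM, and from L6 CT neurons, with 5.51, 4.14 and 3.30 CPM. L6 CT neurons over the other glutamatergic subclasses had a log2 fold change of -2.85 ± 0.13 (n = 3 libraries, edgeR adjusted p = 1.36e-13). Only 0.890% of the 14271 genes fell as far or further in this contrast. Pvalb neurons over the other GABAergic subclasses had -2.23 ± 0.30 (edgeR adjusted p = 4.63e-06), a fall that 2.73% of 10891 genes reached. Cacna1g rose in L6 IT (1.13 ± 0.10, adjusted p = 6.86e-09), L4/5 IT (0.95 ± 0.08, adjusted p = 6.89e-09), L5/6 NP (0.56 ± 0.13, adjusted p = 0.00117) and Vip neurons (1.02 ± 0.21, adjusted p = 0.00075).

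Smaller rises of Cacna1g were called in L5 ET neurons (0.40 ± 0.11, edgeR adjusted p = 0.00947) and in Lamp5 neurons (0.66 ± 0.23, adjusted p = 0.0385). The first was lost without the estrus library (0.24, adjusted p = 0.227) and without the diestrus library (0.41, adjusted p = 0.0922) and without library as a block (0.39, adjusted p = 0.0835). The second was lost without any one of the 3 libraries, with adjusted p of 0.114 without estrus, 0.0896 without diestrus and 0.187 without male. L2/3 IT neurons (-0.19, adjusted p = 0.177) and Sst neurons (0.54, adjusted p = 0.065) did not pass.

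Among the 10 subclasses compared, Cacna1h was highest in L5 ET neurons. In them it had 44.4, 39.3 and 33.7 CPM, from 205, 175 and 65 UMIs in 86, 128 and 102 cells of the estrus, diestrus and male libraries. Each value was higher than that of any of the other 9 subclasses of the same library, and the range did not overlap that of the next subclass. The log2 fold change over the other glutamatergic subclasses was 2.64 ± 0.10 (n = 3 libraries, edgeR adjusted p = 1.22e-14), which 0.911% of 14271 genes reached or passed. Smooth muscle cells and pericytes also carry Cacna1h. The 5 smooth muscle markers summed to 4.99, 8.76 and 7.77 CPM in L5 ET neurons of the estrus, diestrus and male libraries, with 0, 1 and 2 of them at 0, against 31730, 26310 and 25850 CPM in smooth muscle cells. The 6 pericyte markers summed to 13.4, 22.2 and 16.1 CPM in L5 ET neurons, with 3, 1 and 2 of them at 0, against 19090, 18430 and 20310 CPM in pericytes. These pericyte sums lay above those of L2/3 IT neurons (4.26, 5.88 and 7.54 CPM) and overlapped those of L6 CT neurons (18.9, 17.2 and 11.6 CPM), and the part of either cell type in the Cacna1h level was not tested.

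Vip neurons, interneurons that mostly inhibit other interneurons, came second for Cacna1h with 16.2, 18.2 and 18.7 CPM. L2/3 IT neurons came next with 13.1, 15.4 and 12.6 CPM, and neither range overlapped its neighbours. In Vip neurons the 6 pericyte markers summed to 140.6, 10.56 and 19.85 CPM in the estrus, diestrus and male libraries. The part of pericytes in the Vip level was not tested. L6 IT (7.79, 9.54 and 8.12 CPM) and L4/5 IT neurons (8.39, 8.55 and 7.14 CPM) were not separable, and in the remaining subclasses each range overlapped the next. At the low end, L6 CT neurons had 3.40, 2.53 and 2.58 CPM, Sst neurons 3.55, 2.66 and 1.62 CPM, and Pvalb neurons 0, 3.33 and 0 CPM. In Pvalb neurons a count of 0 allows up to 5.37 CPM in the estrus library and 3.05 CPM in the male library.

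Cacna1h rose in Vip neurons over the other GABAergic subclasses (2.79 ± 0.46, edgeR adjusted p = 6.60e-05) and in L2/3 IT neurons over the other glutamatergic ones (0.76 ± 0.12, adjusted p = 1.63e-05). It fell in L6 CT (-1.94 ± 0.15, adjusted p = 7.69e-10) and L5/6 NP neurons (-1.38 ± 0.22, adjusted p = 1.87e-05). The fall in Pvalb neurons (-2.70 ± 0.83, adjusted p = 0.0179) rests on 2 UMIs, depends on the prior count of the fit, and was lost without the estrus library (adjusted p = 0.145) or the male library (adjusted p = 0.184); without the diestrus library it was -5.70. In L4/5 IT, L6 IT, Lamp5 and Sst neurons Cacna1h did not pass, with adjusted p of 0.467, 0.909, 0.40 and 0.457.

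Among the 10 subclasses compared, Cacna1i was led by 2, L4/5 IT and L5 ET neurons. L4/5 IT neurons had 35.7, 38.7 and 39.8 CPM in the estrus, diestrus and male libraries and L5 ET neurons 35.5, 29.9 and 40.9 CPM, overlapping ranges that lay above those of the other 8. The L5/6 NP, L6 IT, L2/3 IT and L6 CT neurons formed an overlapping middle group between 14.8 and 24.4 CPM. Among GABAergic neurons, Sst had 9.24, 8.85 and 17.0 CPM, Pvalb 3.58, 15.0 and 14.3 CPM and Vip 3.23, 10.6 and 7.72 CPM. Lamp5 neurons, which include neurogliaform cells, had 0, 0 and 6.02 CPM, from 3 UMIs in the male library.

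The rises of Cacna1i were 0.89 ± 0.08 in L4/5 IT neurons (edgeR adjusted p = 4.86e-09) and 0.74 ± 0.10 in L5 ET neurons (adjusted p = 3.68e-06). Cacna1i fell in L6 CT (-0.55 ± 0.10, adjusted p = 7.63e-05) and L2/3 IT neurons (-0.46 ± 0.10, adjusted p = 0.000809). In L6 IT neurons it fell by 0.37 ± 0.11 (adjusted p = 0.0121), a call lost without the estrus library (adjusted p = 0.10) and without the male library (adjusted p = 0.059). In L5/6 NP neurons it did not pass (-0.25 ± 0.13, adjusted p = 0.138).

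Of the GABAergic contrasts, Cacna1i was lower in Lamp5 neurons (-2.68 ± 0.72, edgeR adjusted p = 0.00872) and higher in Sst neurons (1.27 ± 0.44, adjusted p = 0.0468). The first rests on 3 UMIs in Lamp5 neurons, all in the male library, and depends on the prior count of the fit. It was lost without the diestrus library (adjusted p = 0.193), and without the male library Cacna1i was filtered out. The second was lost without the estrus (adjusted p = 0.217) or the diestrus library (adjusted p = 0.055). With neurons clustered more coarsely the Sst value was 0.47 (adjusted p = 0.492). Pvalb (adjusted p = 0.144) and Vip neurons (adjusted p = 0.63) did not pass.

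**Figure D3:**
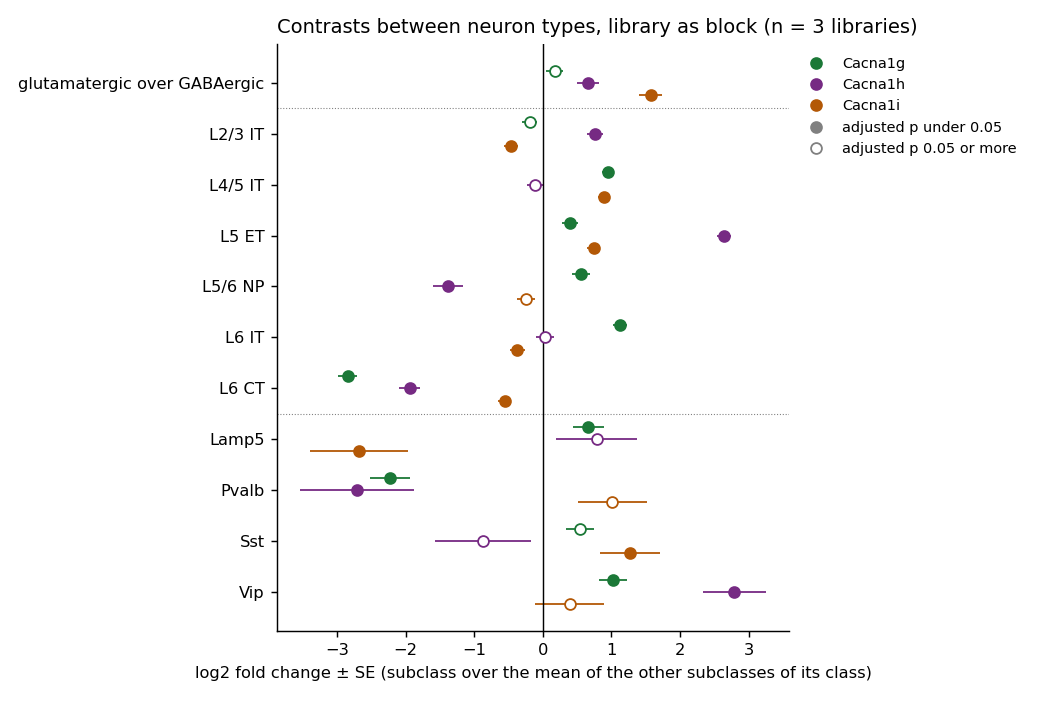
Log2 fold changes ± SE of the 3 T-type genes between neuron types: glutamatergic over GABAergic neurons, then each subclass over the mean of the other subclasses of its class (edgeR, library as block, n = 3 libraries). Filled points passed an adjusted p of 0.05; Cacna1h in L5 ET neurons (2.64) and Cacna1g in L6 CT neurons (-2.85) lie farthest from 0 among the glutamatergic contrasts.

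Set against the other subclasses of their class, L5 ET neurons were higher in Cacna1h and Cacna1i and L6 CT neurons lower in all 3 genes. L4/5 IT neurons were higher in Cacna1g and Cacna1i, Vip neurons higher in Cacna1g and Cacna1h, and Pvalb neurons lower in Cacna1g. L6 IT neurons were higher in Cacna1g. L5/6 NP neurons were higher in Cacna1g and lower in Cacna1h, and L2/3 IT neurons higher in Cacna1h and lower in Cacna1i. Calls that leaving out 1 library ended are not in this list. They are Cacna1g in L5 ET and Lamp5 neurons, Cacna1h in Pvalb neurons and Cacna1i in L6 IT, Lamp5 and Sst neurons. Neurons with at least 10000 UMIs were thinned to that depth, shallower ones were left out, and the libraries were put together. This kept 238 of 316 L5 ET neurons, of which 148 (62.2%) held at least 1 UMI of any of the 3 genes. So did 607 of 1121 L4/5 IT neurons (54.1%), 170 of 356 L6 IT neurons (47.8%) and 49 of 118 Vip neurons (41.5%). For L2/3 IT, L5/6 NP and Sst neurons the counts were 213 of 532 (40.0%), 92 of 230 and 33 of 109 (30.3%). For Lamp5, Pvalb and L6 CT neurons they were 21 of 86 (24.4%), 14 of 69 (20.3%) and 144 of 768 (18.8%). Subclasses drew different shares of these cells from each library, so the pooled shares give no ranking.

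Thinned by library, Cacna1h was found in 28 of 78, 38 of 105 and 13 of 55 L5 ET neurons of the estrus, diestrus and male libraries, or 35.9%, 36.2% and 23.6%. Cacna1g was found in 7 of 174, 14 of 373 and 7 of 221 L6 CT neurons, or 4.02%, 3.75% and 3.17%. For joint detection the 3 libraries were put together. Of the L4/5 IT neurons with a Cacna1i UMI, 131 of 327 (40.1%) also had a Cacna1g UMI, beside 242 of the 794 (30.5%) without Cacna1i. Of the L5 ET neurons with Cacna1h, 21 of 79 (26.6%) also had Cacna1g, beside 34 of 159 (21.4%) without it. Cells of 1 library share their source, so these shares are descriptions without a test. The part of differences between sub-clusters or libraries in the joint shares was not tested.

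Subclasses were not uniform inside. L4/5 IT neurons fell into 4 sub-clusters. The one led by Il1rapl2 and Deptor had Cacna1g at 33.6, 26.2 and 25.2 CPM and Cacna1i at 31.5, 32.3 and 31.0 CPM in the estrus, diestrus and male libraries. The one led by Tnnc1, Medag and Krt12 had more of both, Cacna1g at 54.5, 49.8 and 36.9 CPM and Cacna1i at 47.7, 50.4 and 53.6 CPM. Neither range overlapped between the 2 sub-clusters for either gene.

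Lamp5 neurons split in the same way for Cacna1h. The sub-cluster led by Ndnf, a marker of layer 1 neurogliaform cells, had 7 UMIs in 19 cells of estrus, 3 in 13 of diestrus and 3 in 6 of male, or 18.5, 17.2 and 39.1 CPM. The sub-cluster led by Hapln1 and Crispld1 had 1 UMI in 13 cells of estrus and 0 in 46 of diestrus and 32 of male, with 3.45 CPM in estrus. In Vip neurons, 1 sub-cluster had Thsd7b, Penk, Calb2 and the pericyte marker Vtn among its 10 leading genes. It had 4.24, 5.53 and 0 CPM of Cacna1h, while the one led by Wnt5b had 20.5, 26.6 and 25.4 CPM. These counts are small, and clusters were found in the same cells, so no test was made.

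Genes with the pattern most like each member over the 10 subclasses were taken among 9752 genes, by Pearson's r of log2 CPM means. For Cacna1g they were Galnt14 (r = 0.856), Tmem178b (0.844), Lrrtm1 (0.829), March3 (0.822) and Cpne7 (0.82). Galnt14, which encodes an enzyme of O-linked glycosylation, was highest in L6 IT neurons, as Cacna1g was (267.9 CPM on average), and lowest in Pvalb neurons (5.66 CPM), whereas Lrrtm1, a synaptic adhesion gene, was lowest in L6 CT neurons (11.3 CPM). For Cacna1h they were Senp3 (0.909), Lemd2 (0.894), Bbip1 (0.881), Gnai1 (0.876) and Pdgfa (0.873).

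Over the 30 sums of a subclass in a library, the 5 values for Cacna1h were lower, at 0.495, 0.654, 0.56, 0.661 and 0.507, than for Cacna1g (0.702 to 0.825). Senp3 had 28.6 CPM in L5 ET neurons, its highest subclass, and 21.5 CPM in Pvalb neurons, its lowest, while Cacna1h averaged 39.1 CPM in the first and 1.11 CPM in the second. For Cacna1i they were Gnaz (0.947), Galt (0.945), Plxna1 (0.942), Aifm3 (0.94) and Dnajb5 (0.937). Gnaz, which encodes a G protein alpha subunit, was highest in L5 ET neurons (67.3 CPM) and lowest in Lamp5 neurons (15.3 CPM). These correlations are descriptions over 10 subclasses that share libraries and depth, chosen as the highest of many.

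Other genes of calcium entry and burst firing also differed between these types. Of 24 partners in rebound and burst firing, 23 were tested in L5 ET neurons, where 12 rose and 2 fell with a median log2 fold change of 0.22, beside 17.5% and 13.9% of all genes and a median of 0.00. Kcnn2, a calcium-activated SK potassium channel that shapes the afterhyperpolarisation, rose by 1.95 ± 0.09 (edgeR adjusted p = 3.23e-13), and Kcnip1 rose by 1.65 ± 0.26. Kcnip2, an auxiliary subunit of A-type potassium channels, had -2.72 ± 0.24 (adjusted p = 7.66e-09) and Kcnn3 -0.61 ± 0.19 (adjusted p = 0.0147).

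Among 15 tested regulators of T-type channels, 3 rose and 5 fell in L5 ET neurons (median 0.01). Stac rose by 3.96 ± 0.40 (edgeR adjusted p = 6.29e-08). Over all glutamatergic neurons Stac was low, at 1.63, 1.81 and 3.36 CPM in the estrus, diestrus and male libraries. Klhl1, a kelch protein reported to bind T-type channels and raise their current, rose by 3.36 ± 0.26 (adjusted p = 1.07e-09). Camk2d (-2.72 ± 0.24) and Stx1a (-0.65 ± 0.07) fell. Of 12 tested genes of other calcium channels, 3 rose and 4 fell (median -0.07), led by the alpha2delta subunits Cacna2d3 (2.84 ± 0.10) and Cacna2d2 (1.45 ± 0.16) at the upper end and by Cacna1d (-0.33 ± 0.08) and Cacna1a (-0.36 ± 0.07) at the lower.

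In L6 CT neurons, where the T-type genes were low, 9 of 23 burst-firing partners rose and 8 fell, beside 18.5% and 15.1% of all genes. Dpp10 (1.61 ± 0.08) and Kcnip3 (1.34 ± 0.07), 2 auxiliary subunits of A-type channels, were at the upper end, and Kcnip4 (-2.35 ± 0.09) and Hcn4 (-2.57 ± 0.56, adjusted p = 0.00091), a pacemaker channel, at the lower, all passing. Other calcium channels split 4 up and 5 down of 12 (median -0.01), from Cacna1d (0.71 ± 0.07) and Cacna1e (0.47 ± 0.07) to Cacna1b (-0.67 ± 0.08) and Cacna2d3 (-3.35 ± 0.16). Regulators split 4 up and 4 down of 15 (median 0.10), from Egr1 (0.66 ± 0.08) and Snap25 (0.32 ± 0.07) to Klhl1 (-1.55 ± 0.40) and Stac (-2.91 ± 0.84, adjusted p = 0.00983). Over all glutamatergic neurons of the estrus, diestrus and male libraries, Hcn4 had 4.08, 2.11 and 2.03 CPM and Stac 1.63, 1.81 and 3.36 CPM. Their falls thus start from low levels.

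Between glutamatergic and GABAergic neurons, 9 of 14 other calcium channel genes rose and 4 fell, beside 26.9% and 22.1% of all genes (medians 0.46 and 0.04). Cacna1f (3.0 ± 1.1, adjusted p = 0.0333) and Cacna1e (1.99 ± 0.09), the R-type channel, were at the upper end, and Cacna2d3 (-0.99 ± 0.08) and Cacna2d2 (-3.63 ± 0.15) at the lower. Cacna1f had 0.61, 0.57 and 0.70 CPM in glutamatergic neurons of the estrus, diestrus and male libraries. Its fold change thus rests on low counts. Burst-firing partners had 11 of 23 up and 8 down (median 0.32), from Dpp10 (3.31 ± 0.09) and Kcnip3 (3.28 ± 0.10) to Dpp6 (-1.41 ± 0.08) and Kcnip1 (-4.36 ± 0.15). Of 16 regulators 9 rose and 5 fell (median 0.37), from Stx1a (2.68 ± 0.09) and Camk2a (1.89 ± 0.11) to Rest (-1.20 ± 0.45) and Stac (-1.84 ± 0.22). Rest had 0.85, 0.57 and 0.70 CPM in the same glutamatergic neurons and Stac 1.63, 1.81 and 3.36 CPM, both low levels.

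Between the libraries, the summed glutamatergic neurons showed more Cacna1g in estrus than in diestrus or male, and more Cacna1h in estrus and diestrus than in male. The log2 ratio of Cacna1g (1 CPM added) was 0.43 for estrus over diestrus (34.1 and 25.1 CPM, 95% interval 0.34 to 0.55) and 0.53 for estrus over male (34.1 and 23.4 CPM, 0.42 to 0.68). Cacna1h had 0.40 for estrus over male (11.7 and 8.62 CPM, 0.22 to 0.66) and 0.30 for diestrus over male (10.9 and 8.62 CPM, 0.11 to 0.56), and 0.10 for estrus over diestrus (-0.07 to 0.28). Cacna1i moved by at most 0.13 in any pair. None of these 9 ratios reached 1.5-fold, a size that 2.82% of genes passed upward and 3.52% downward for estrus over diestrus, 5.12% and 7.18% for estrus over male, and 0.464% and 1.52% for diestrus over male. Neurons with at least 5000 UMIs were also thinned to that depth, and shallower ones were left out. Cacna1h then passed that size, at 0.66 for estrus over male and 0.64 for diestrus over male. Cacna1g came to 0.25 for estrus over diestrus and 0.39 for estrus over male.

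For both estrus pairs, the make-up of the class moved with the Cacna1g ratio. For diestrus over male it went the other way from the Cacna1g ratio of 0.10 (-0.04 to 0.24). L4/5 IT neurons, rich in Cacna1g and Cacna1i, made up 42.6%, 26.4% and 30.2% of named glutamatergic neurons in the estrus, diestrus and male libraries, and L6 CT neurons, poor in Cacna1g, made up 15.6%, 29.6% and 24.9%. With the 6 subclasses weighted alike, Cacna1g had 30.9, 27.0 and 25.3 CPM, so that its ratio came to 0.19 for estrus over diestrus and 0.28 for estrus over male, both below their first intervals. Cacna1i then had 23.2, 23.7 and 26 CPM, and its estrus over diestrus ratio of 0.13 (0.02 to 0.25) turned to -0.030. Cacna1h had 13.4, 13.3 and 11.3 CPM. Genes as long as Cacna1g had a median ratio of -0.10 for estrus over diestrus and -0.13 for estrus over male; corrected for this, Cacna1g had 0.53 and 0.65, the second past 1.5-fold, as was its estrus over male ratio of 0.63 with TMM factors.

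**Figure D4:**
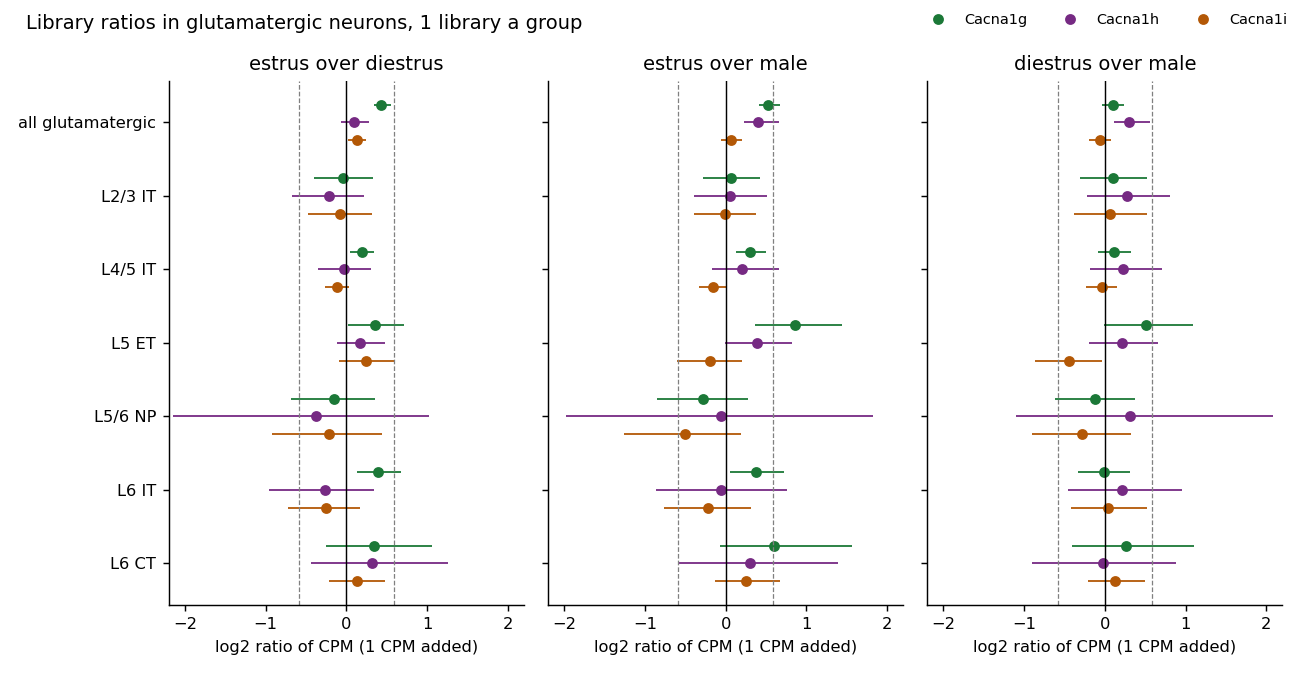
Log2 ratios of CPM between libraries for the 3 T-type genes in all glutamatergic neurons and in 6 subclasses (1 library a group; points with 1 CPM added, lines are exact 95% intervals of the counts without it; dashed lines mark 1.5-fold). Cacna1g lies above 0 for both estrus pairs in all glutamatergic neurons (0.43 and 0.53), and Cacna1g in L5 ET neurons, estrus over male (0.86), is the 1 ratio past 1.5-fold among those with at least 100 UMIs and 5 CPM.

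Subclass by subclass, Cacna1g was higher in estrus than in diestrus in 4 of 6 glutamatergic subclasses and higher than in male in 5 of 6, with the interval above 0 in 3 subclasses for each pair and below 0 in none. Those 3 were L4/5 IT neurons (0.19 and 0.31 for the pairs with diestrus and male), L6 IT neurons (0.39 and 0.38) and L5 ET neurons (0.35 and 0.86). In L5 ET neurons Cacna1g had 35.5, 27.6 and 19.2 CPM, from 164, 123 and 37 UMIs in the estrus, diestrus and male libraries. Its estrus over male ratio of 0.86 (0.37 to 1.45) was past 1.5-fold, as were 13.5% of 8137 genes upward in that subclass, so a ratio of that size was common there. Thinned to 10000 UMIs, 31 of 78, 20 of 105 and 4 of 55 L5 ET neurons held Cacna1g, or 39.7%, 19.0% and 7.27%. Median depth in L5 ET neurons was 56357, 31787 and 11459.5 UMIs, so depth moved with the ratio. With L5 ET neurons of at least 5000 UMIs thinned to that depth, the ratio was 1.04. That value has no interval and draws on at most 5000 UMIs from each of 86 estrus and 102 male neurons. The part of depth in the ratio was not tested.

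Cacna1h, in the L5 ET neurons where it was highest, had a ratio of 0.17 for estrus over diestrus (-0.12 to 0.48), 0.39 for estrus over male (-0.01 to 0.83) and 0.22 for diestrus over male (-0.20 to 0.66). Each interval held 0, so a difference was not detectable at this depth, while changes up to the upper bounds remain possible. In no glutamatergic or GABAergic subclass did an interval for Cacna1h lie clear of 0. Cacna1i in L5 ET neurons had -0.44 for diestrus over male (29.9 and 40.9 CPM, -0.87 to -0.03). With L5 ET neurons of at least 5000 UMIs thinned to that depth, it was -0.04, from fewer counts and without an interval.

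In GABAergic neurons, the counts were too low for the size rule except for Cacna1g, whose ratios were -0.25 for estrus over diestrus, 0.06 for estrus over male and 0.31 for diestrus over male, each with an interval across 0. With neurons of at least 5000 UMIs thinned to that depth, the last 2 came to 0.73 and 0.77. The thinned sums hold at most 5000 UMIs from each of 153, 266 and 290 neurons of the estrus, diestrus and male libraries. The 2 thinned values have no interval and were not held to the minimum of 100 UMIs, so the size rule was not applied to them. Cacna1i, at 6.94, 8.29 and 13.4 CPM from 27, 38 and 57 UMIs, had ratios of -0.86 for estrus over male (-1.66 to -0.26) and -0.63 for diestrus over male (-1.32 to -0.07). It was lower in estrus than in male in all 4 GABAergic subclasses, though in none did the interval exclude 0. Pvalb and Sst neurons, which held more Cacna1i than Lamp5 neurons on average, made up 13.1% and 25.5% of named GABAergic neurons in the estrus library, 11.3% and 18.8% in the diestrus library and 15.5% and 26.2% in the male library. With the 4 subclasses weighted alike, Cacna1i had 4.01, 8.6 and 11.2 CPM, and its ratios came to -1.29 for estrus over male and -0.35 for diestrus over male.

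Among the related genes in glutamatergic neurons, the counts past 1.5-fold were read against 5.12% of all genes upward and 7.18% downward for estrus over male. For that pair, 12 measured genes of other calcium channels had a median of -0.31, with 1 past 1.5-fold downward (Cacnb2, 110 and 184 CPM). The 21 burst-firing partners had a median of -0.18 with 3 past it downward, and 14 regulators 0.07 with 2 past it upward. The median over all genes was -0.03. Genes as long as Cacna1g and Cacna1i had medians of -0.13 and -0.19 for this pair, and -0.10 and -0.13 for estrus over diestrus. The list medians were not corrected for gene length, and the part of length in them was not tested. The 2 regulators were Egr1, an activity-induced transcription factor (368 and 225 CPM), and Rack1 (168 and 110 CPM). For estrus over diestrus the medians of these 3 lists were -0.20, -0.14 and 0.07, beside 0.01 over all genes. There 2 burst-firing partners were past 1.5-fold downward, Dpp10 (3428 and 5273 CPM) and Kcnip1 (13.9 and 24.6 CPM). Of all genes, 2.82% were past it upward and 3.52% downward for that pair. For diestrus over male the medians lay between -0.05 and 0.05, with Egr1 alone past 1.5-fold (428 and 225 CPM), beside 0.464% of all genes upward and 1.52% downward.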

How the data were processed

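Droplet 3′ libraries were made from pooled mPFC tissue of 2 mice per group after papain digestion and a Percoll step, per the labels' protocols. The deposited matrices hold raw UMI counts per gene and barcode. Cell Ranger 3.0.2 and mm10 are named per the submitters' processing notes, whereas the file headers name Cell Ranger 7.0.0; no source used here states the handling of intronic reads or strand. The estrus, diestrus and male matrices sum to 152291602, 144738154 and 115632520 UMIs.

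Barcodes with under 500 genes, over 15% mitochondrial UMIs or a Scrublet score above 0.3 were left out. Cells were clustered with scanpy 1.11.5 and leidenalg 0.10.2 (2000 variable genes without the T-type genes, 30 components, resolution 1) and named from fixed markers. Settings for naming blood cell clusters and for leaving out neuron sub-clusters led by at least 2 genes of another type were chosen after seeing the clusters. Subclasses needed 20 cells in every library. The members and gene lists were chosen with earlier results of these data known. Related genes named are the 2 highest and 2 lowest of each list. The sex steroid receptor list is not reported here.

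Neuron types were compared on counts summed per library and type with edgeR 4.0.16 (quasi-likelihood test, TMM, library as block, Benjamini-Hochberg adjustment over all genes, threshold 0.05; DESeq2 1.42.0 as alternative). Sums of 1 library come from 1 preparation, and the block takes out shifts common to a library. The p-values therefore measure how differences between types varied over the 3 libraries, with 1 estimate of spread per gene shared by all types of a fit. The 3 libraries are 3 groups with 1 library each, not replicates of 1 condition. Simulated counts for the L5 ET contrast (14271 genes) had an assumed dispersion, 1 mean profile for all subclasses and no library effect. Of 100 genes changed 2-fold 45% were recovered, and of 100 changed 4-fold 100%, with 6 false calls. The real contrast called 4481 genes, so these shares do not describe its power or its rate of false calls. Library ratios were log2 with 1 CPM added, for genes with at least 100 UMIs and 5 CPM, with exact 95% intervals of the counts; levels have exact Poisson intervals, and a count of 0 was bounded at 3 counts. All cover counting error only.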

Additional observations from a re-analysis of the deposited data

Results flagged for a closer look

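A small group of glutamatergic neurons outside the named subclasses held the highest Cacna1h level of any neuron group of the diestrus library. It entered none of the comparisons between subclasses, but its cells are part of the sums of all glutamatergic neurons, where it gave 32 of the 515 Cacna1h UMIs of the diestrus library. It had 22 cells in the diestrus library, 1 in the male library and 0 in the estrus library, and was led by Arhgap6, Spink8, Nr3c2, Tafa2 and Zbtb20. Its markers did not give it a name. Its Cacna1h level was 67.8 CPM (exact Poisson 95% interval 46.4 to 95.7), beside 39.3 CPM in L5 ET neurons of the same library. With 1 library holding nearly all of its cells, a cell type and a feature of that library cannot be told apart.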

How the results depend on the processing

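Of 33 results of the type contrasts, 21 kept their direction and side of the threshold in every alternative run, and 274 of 305 comparisons did; these included Cacna1h in L5 ET neurons and Cacna1g in L6 CT neurons. For the others the cause was not tested. No paired analysis was possible between groups because each has 1 library; library was the block within which types were compared. Without that block, Cacna1h glutamatergic over GABAergic was 0.62, Cacna1g in L5 ET 0.39 and in Lamp5 0.68, and Cacna1i in Sst 1.2, all lost. With DESeq2, Cacna1g in Lamp5 (0.67), Cacna1h in Pvalb (-2.83) and Cacna1i in Sst (1.37) were lost, and without a filter Cacna1g in Lamp5 (0.66). With coarser clustering, Cacna1i in Sst was 0.47 and lost, Cacna1g in Sst 0.81 and gained, and the uncalled Cacna1h in L6 IT (-0.022), Cacna1i in Pvalb (-0.090) and Cacna1i in Vip (-0.38) turned sign. With subclasses from 15 cells, an alternative chosen after seeing the data, Cacna1g in Sst was 0.58 and gained and Cacna1i in Sst 0.84 and lost.

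Leaving out 1 library at a time gave ranges of -0.057 to 0.29 for Cacna1g and 0.59 to 0.65 for Cacna1h, glutamatergic over GABAergic; 0.24 to 0.51 for Cacna1g in L5 ET and 0.57 to 0.83 in Lamp5; -0.063 to 0.12 for Cacna1h in L6 IT and -5.70 to -2.01 in Pvalb; and for Cacna1i -0.48 to -0.29 in L6 IT, 0.94 to 1.39 in Sst, -2.42 to -1.66 in Lamp5 and -0.32 to 0.38 in Vip. Without the male library Cacna1i was filtered out of the GABAergic contrasts.

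Among library ratios, thinning to 5000 UMIs gave Cacna1g 0.25 (estrus over diestrus) and 0.39 (estrus over male) in glutamatergic neurons and 0.73 (estrus over male) and 0.77 (diestrus over male) in GABAergic neurons, and Cacna1h 0.64 in glutamatergic neurons (diestrus over male). With subclasses weighted alike, Cacna1g was 0.19 (estrus over diestrus) and 0.28 (estrus over male), and Cacna1i -0.030 and -0.16 for these pairs. Corrected for gene length, Cacna1i was 0.26 for both pairs and Cacna1g 0.53 and 0.65. Shares of glutamatergic neurons in the estrus, diestrus and male libraries were 57.2%, 37.8% and 26.5% for Cacna1g, 28.9%, 20.9% and 11.7% for Cacna1h and 52.9%, 39.9% and 29.9% for Cacna1i without thinning. At 10000 UMIs they were 27.3%, 18.8% and 17.3%, 11.8%, 9.74% and 8.08%, and 24.9%, 21.0% and 20.0%.

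Counts of genes called fell by over 1.5 times without the block in 9 contrasts: 5425 against 8189 for glutamatergic over GABAergic, 3734 against 5652 in L2/3 IT, 2588 against 4783 in L4/5 IT, 2836 against 4481 in L5 ET, 2968 against 4795 in L6 CT, 2409 against 3980 in L6 IT, 1554 against 2399 in Lamp5, 1191 against 2050 in Sst and 1653 against 2685 in Vip. DESeq2 called 1275 in Sst and 1739 in Vip, and coarser clustering 1314 in Sst. Without the diestrus library 3141 were called in L4/5 IT, 2910 in L5 ET, 2312 in L6 IT and 1703 in Vip, and without the male library 1545 in Lamp5, 1844 in Pvalb, 1195 in Sst and 1721 in Vip. Counts were low in the GABAergic subclasses compared, where each T-type gene had at most 41 UMIs in a library, from 20 to 95 cells.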

Other observations

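L6b neurons, the deepest cortical layer, and Sncg interneurons had too few cells in a library for the comparisons. In L6b neurons Cacna1i had 19 UMIs in 26 cells of the diestrus library (27.0 CPM) and 18 UMIs in 22 cells of the male library (39.1 CPM), while Cacna1g had 1 and 0 UMIs. In Sncg neurons, which include cholecystokinin basket cells, Cacna1g had 14.2, 17.8 and 22 CPM, Cacna1h 11.0, 7.14 and 6.28 CPM and Cacna1i 15.7, 9.51 and 18.8 CPM in the estrus, diestrus and male libraries. Among L2/3 IT neurons thinned to 10000 UMIs, 5 of 95 with a Cacna1g UMI (5.26%) also had a Cacna1h UMI, beside 65 of 437 without Cacna1g (14.9%), a description over cells that share libraries.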
